A study of Mus musculus with 3 samples.

Results

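Foxd3 sites recovered through both epitope tags of the protein and lying close to another site were described across the genome of mouse embryonic stem cells. All peaks of the anti-HA and the anti-Flag list that overlapped by at least 1 bp were merged into union regions. A region was kept when it held at least 1 HA and at least 1 Flag peak and had another region of any kind on the same chromosome within 12.5 kb, edge to edge. This gave 522 grouped regions out of 5469 union regions, or 21.0% of the 2487 regions found with both antibodies. They held 525 HA and 523 Flag peaks and covered 455.1 kb. The other 1965 regions of both antibodies are called isolated below.

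The cells were LF2 embryonic stem cells transduced with a lentivirus carrying FH-Foxd3, a Foxd3 with a Flag and an HA tag, and selected with neomycin. They were grown without feeder cells in medium with FBS and LIF, and the same line served for both precipitations and the input. Binding was mapped by chromatin immunoprecipitation and sequencing, with 1 library per antibody and 1 input, which was not analysed here. The submitters describe the level of the added protein as close to that of the endogenous one, and no precipitation from cells without the tag was analysed here. The lists hold positions only (build mm9), so read depth and peak height are unknown. With 1 library per antibody there is no spread between samples, and the differences below are descriptions without a test.

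Foxd3 is a forkhead transcription factor, a class of proteins with a winged-helix DNA-binding domain. It is expressed in pluripotent cells and later in neural crest, and it is known to change the activity of enhancers. In embryonic stem cells, pluripotency genes are often controlled by clusters of enhancers in which several factors bind within a few kilobases. In a list of positions, several binding sites and 1 wide stretch called in pieces cannot be told apart.

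The grouped regions fell into 349 groups, where a group is a run of union regions with successive gaps of at most 12.5 kb. Most groups were small. In 205 groups there was 1 region of both antibodies beside a region of 1 antibody, in 120 groups there were 2, in 19 there were 3, and in 5 there were 4. In all, 317 grouped regions (60.7%) shared their group with another region of both antibodies, and 111 groups (234 regions) were made of such regions alone. The median group spanned 7188 bp, and successive regions of both antibodies within a group were a median of 5021 bp apart (quartiles 1407 and 9153 bp).

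Several of the fullest groups lie in neighbourhoods known for pluripotency genes. How often groups or isolated regions lie near such genes in general was not counted, so no preference is read from the names. Some other neighbourhoods looked up, those of Klf2, Lifr and Etv5, held no grouped region. The gene names below are background from general knowledge of the mouse map. No mm9 annotation was used here, so no distance to a gene or place in an exon or intron is given. RefSeq's table (GRCm38.p6) was used only to see that each named gene is on the same chromosome.

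Of the 5 groups with 4 regions of both antibodies, the one with most peaks was chr11:3054527-3100146, in the neighbourhood of Sfi1, which encodes a centrosomal protein. It had 12 regions, of which 4 were found with both antibodies, 5 with HA only and 3 with Flag only. At chr11:3070291-3072663 the HA peak was 1835 bp wide and the Flag peak 2373 bp. At chr11:3075696-3078468 the widths were 1099 bp in HA and 2664 bp in Flag. The same order held at chr11:3088492-3090639, where the widths were 738 bp (HA) and 2148 bp (Flag). Only at chr11:3078731-3080271 was the HA peak the wider within this group, with 1541 bp against 1431 bp. Gaps were short here, and the regions of both antibodies had nearest gaps of 56, 262, 262 and 4777 bp. Repeated sequence and mappability were not examined, so this group ranks first by listed peaks and not by a measure of binding.

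The second group, chr7:3193108-3222740, lies in the neighbourhood of the miR-290 cluster, a microRNA cluster highly expressed in mouse embryonic stem cells. It held 4 regions of both antibodies, 2 of Flag only and 1 of HA only. In RefSeq (GRCm38.p6), 13 mature sequences were matched to the 7 hairpin genes looked up. For Mir292 only the 5p sequence was matched, so the seed of its other arm is not covered here. Shown are the 5 of the 13 whose seeds begin with AAGUGC, since the locus is known for them. The other 8 of the 13 carry other seeds. Sequences run 5′ to 3′, with the seed (bases 2 to 8) in capitals.
mmu-miR-291a-3p: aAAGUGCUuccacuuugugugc
mmu-miR-294-3p: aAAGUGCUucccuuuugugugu
mmu-miR-295-3p: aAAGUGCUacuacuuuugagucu
mmu-miR-290a-3p: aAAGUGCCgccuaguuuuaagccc
mmu-miR-291b-3p: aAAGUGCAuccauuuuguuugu
The 3 microRNAs at the top share 1 seed, and the seeds of the other two differ from it in their last base alone.

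Widths in the chromosome 7 group differed most at its far end. The region chr7:3217470-3222740 joined an HA peak of 721 bp to a Flag peak of 5241 bp, the widest of the Flag list, and their centres were 2290 bp apart. At chr7:3203493-3204710 the antibodies gave nearly equal widths, 1035 bp in HA and 1066 bp in Flag. At chr7:3206302-3207260 they gave 771 and 959 bp. The region at the near end, chr7:3193108-3193788, was wider in HA, with 671 bp against 376 bp.

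The third group, chr3:34633760-34660715, lies in the neighbourhood of Sox2 and its distal downstream enhancers. Sox2 is a core pluripotency factor that binds DNA together with Oct4. All 4 HA peaks of the group met a Flag peak, and 2 further Flag peaks had no HA partner. A pair of regions lay 25 bp apart. In that pair chr3:34654915-34656528 measured 1398 bp in HA and 1571 bp in Flag, and chr3:34656554-34657444 measured 891 bp in HA and 735 bp in Flag. The outer regions were the narrower ones in HA. At chr3:34643995-34644544 the widths were 492 and 550 bp, and at chr3:34659867-34660715 they were 782 and 849 bp, HA before Flag. A separate group, chr3:34545007-34553162, lies in the neighbourhood of the Sox2 gene itself. It had 2 narrow regions of both antibodies, 509 bp in HA and 348 bp in Flag at its start and 397 bp in HA and 497 bp in Flag at its end, with an HA-only peak of 475 bp between them.

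The fourth group, chr8:91515425-91545816, lies in the neighbourhood of Sall1, a zinc-finger factor related to the pluripotency factor Sall4. Its region chr8:91515425-91516828 measured 1061 bp in HA and 1292 bp in Flag. The next pair lay 125 bp apart, with 1118 and 1173 bp (HA, Flag) at chr8:91525437-91527006 and with 1095 and 694 bp at chr8:91527132-91528226. At the far end, chr8:91544979-91545816, the HA peak of 838 bp met a Flag peak of 338 bp. An HA-only peak of 757 bp stood between these.

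The fifth group, chr14:76393425-76404881, was the most compact of the 5 and had no peak of 1 antibody alone. Its 4 HA peaks measured 528, 396, 690 and 342 bp, and the Flag peaks they met measured 568, 534, 793 and 378 bp. Flag was thus the wider in each of the 4 regions. No gene is named for this stretch. In the map of the 5 groups, shading marks the regions where an HA and a Flag peak overlap, and their centres can still lie far apart, as by 891.5 bp at chr11:3075696-3078468.

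**Figure D1:**
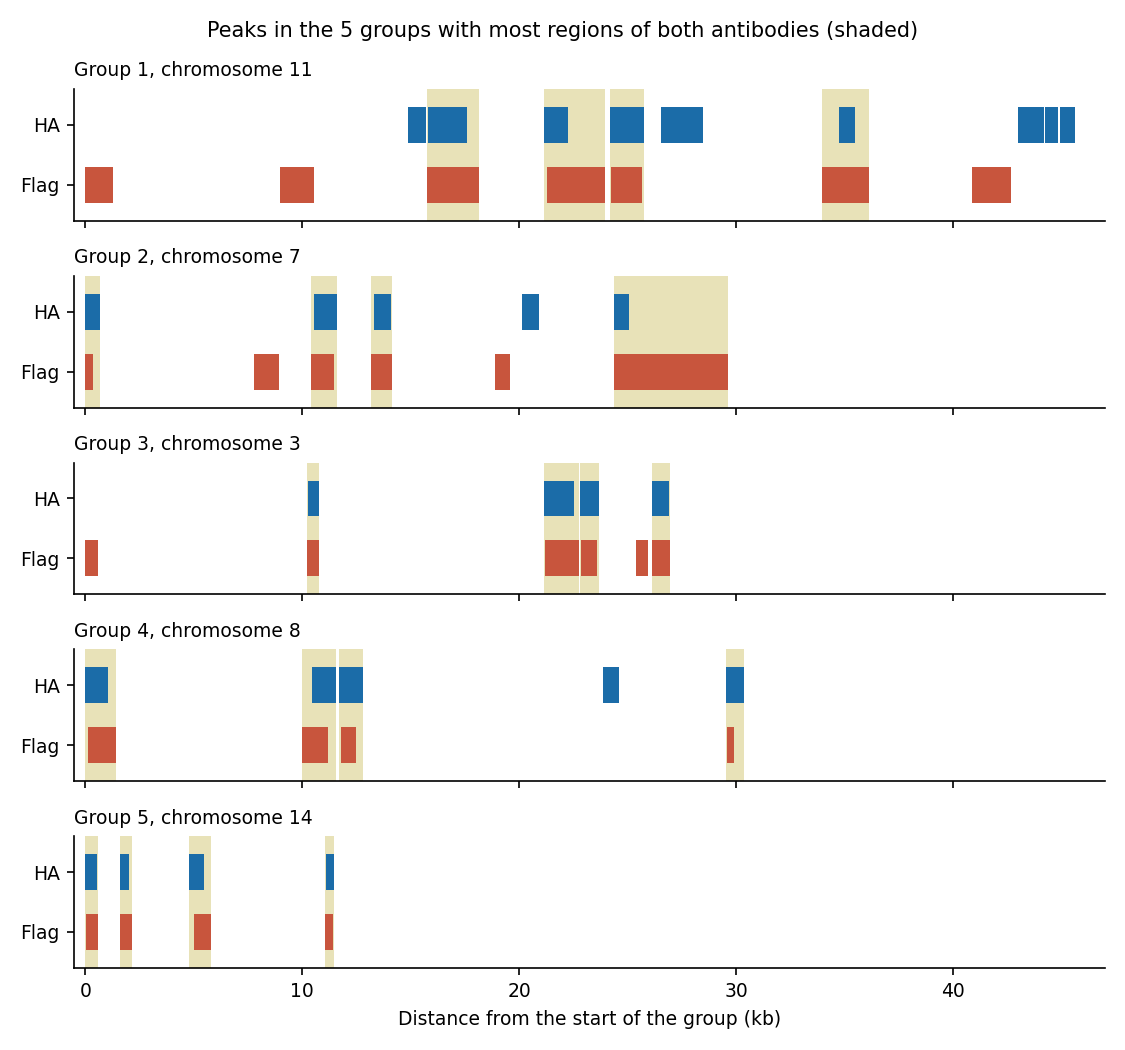
HA peaks (blue, upper row) and Flag peaks (red, lower row) in the 5 groups with most regions of both antibodies, drawn to scale by distance from the start of the group in kb, with regions of both antibodies shaded. Each group has 4 shaded regions, and the groups span from 11457 bp (chromosome 14) to 45620 bp (chromosome 11).

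Further groups with 3 regions of both antibodies stood next in order. The sixth, chr14:99719739-99753697, lies in the neighbourhood of Klf5, a Krüppel-like factor of naive pluripotency. Its region chr14:99723426-99725571 had an HA peak of 2121 bp, the widest of the HA list, over a Flag peak of 1095 bp. At chr14:99738655-99741080 the order was the reverse, 1628 bp (HA) and 2426 bp (Flag). The eighth group, chr6:122712428-122721034, lies in the wider neighbourhood of Nanog, the homeobox factor of naive pluripotency. This group spanned 8607 bp, against a median of 15878 bp for groups with 3 or 4 regions of both antibodies and 7188 bp for all groups. Its 3 regions were of moderate width, 457, 535 and 798 bp in HA and 328, 907 and 742 bp in Flag. The neighbourhood of Nanog and Dppa3 held 11 regions, of which 6 were of both antibodies and 3 were grouped. Among the others were an HA-only region, chr6:122651954-122653359, and a Flag-only region, chr6:122656953-122658655. Which of them lies closest to the Nanog gene was not measured. The groups ranked 7, 9 and 10, for which no gene is named, were chr6:143063155-143101660, chr8:67557209-67572087 and chr8:28346466-28361671.

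Some groups of lower rank also lie in neighbourhoods of genes known from pluripotent cells. At Klf4, another Krüppel-like factor, chr4:55476899-55491312 held 3 regions, with HA widths of 783, 593 and 388 bp and Flag widths of 758, 935 and 1095 bp. HA peaks became narrower along this group while Flag peaks became wider. At Dppa5a and Ooep, genes for RNA-binding proteins of the oocyte and early embryo, chr9:78207369-78223917 held 3 regions, and the last of them measured 1705 bp in HA and 1717 bp in Flag. The neighbourhood of Tsc22d1, a leucine-zipper gene responsive to TGF-beta, held 6 grouped regions in 3 groups between 76860971 and 77016639 of chromosome 14. The longest of these, chr14:76914302-76917223, measured 1624 bp in HA and 2515 bp in Flag. The widest HA peak among them, 1901 bp, was at chr14:77014732-77016639, over a Flag peak of 544 bp. Tdgf1, the co-receptor of Nodal, had 1 grouped region in its neighbourhood, chr9:110849111-110850892, which measured 1782 bp (HA) and 1540 bp (Flag). A Flag-only region lay 11643 bp from it.

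Peaks of grouped regions were wider than those of isolated regions in both lists. In the HA list the median was 640 bp for grouped regions (quartiles 501 and 850 bp) and 549 bp for isolated ones (435 and 709 bp). The exact binomial 95% intervals of these medians were 621 to 673 bp and 538 to 561 bp. The corresponding Flag medians were 642 bp (quartiles 470.5 and 908 bp) and 534.5 bp (426 and 703.8 bp), with intervals of 607 to 677 bp and 526 to 545 bp. The intervals do not meet in either list, but they cover only the spread over peaks of 1 library, and neighbouring peaks are not independent. The quartile ranges overlapped widely.

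The excess was larger at the wide end. Peaks over 1000 bp made up 7.87% of the HA list. Among HA peaks of grouped regions the share was 16.2% (85 of 525), and among those of isolated regions it was 6.34% (125 of 1971). Of all Flag peaks 6.63% were over 1000 bp wide, compared with 19.7% in grouped regions (103 of 523) and 6.03% in isolated ones (119 of 1974). Ranked by width in both lists together, the 10 widest of all regions of both antibodies were grouped ones. Of the widest 100, 53 were grouped, and of the widest 250, 104 (41.6%), against 21.0% of all regions of both antibodies.

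**Figure D2:**
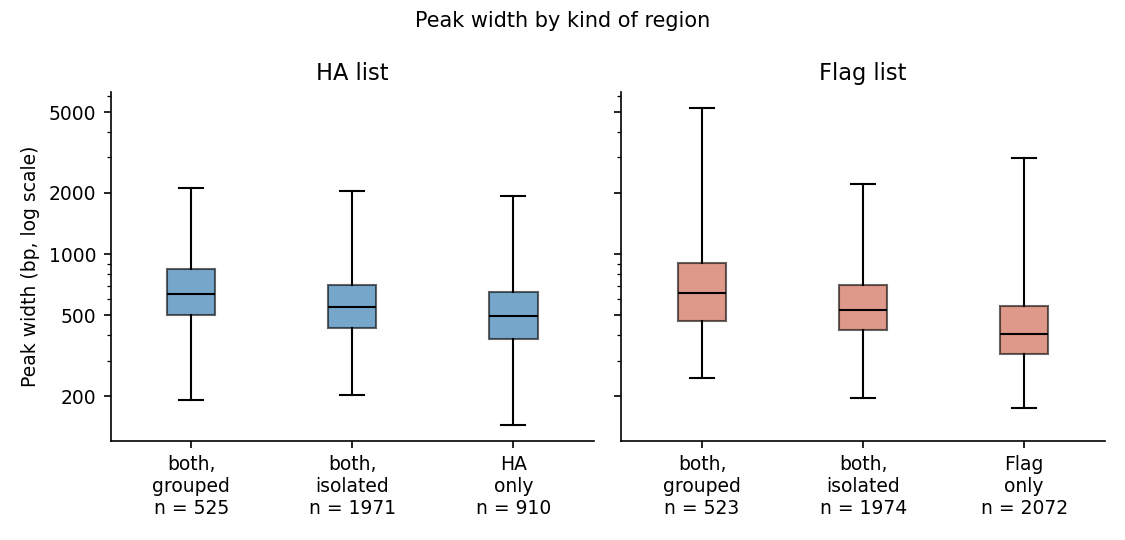
Peak width in bp on a log scale for the HA list (left) and the Flag list (right), by kind of region, with n peaks; boxes give quartiles and the median, and whiskers reach the narrowest and widest peak. Grouped regions have the highest median in each list, 640 bp in HA and 642 bp in Flag.

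The rule's limit of 12.5 kb did not mark a step in width. Among regions of both antibodies with a gap of at most 1 kb the median HA width was 636.5 bp (122 peaks), and it was 642 bp from 1 to 2.5 kb, 685 bp from 2.5 to 5 kb and 624 bp from 5 to 12.5 kb. Just beyond the limit, from 12.5 to 25 kb, it was still 606 bp, then 562 bp up to 100 kb and 528 bp for the 1047 regions farther than that from any other. Flag widths showed a similar course, with 661 bp up to 1 kb, 732 bp from 1 to 2.5 kb, 658 bp from 2.5 to 5 kb, 597 bp from 5 to 12.5 kb, 598 bp from 12.5 to 25 kb and 521 bp beyond 100 kb. Class medians had no steady order within 12.5 kb and were lower in each of the last classes than in the one before, apart from the Flag medians on either side of the limit, which were 1 bp apart.

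**Figure D3:**
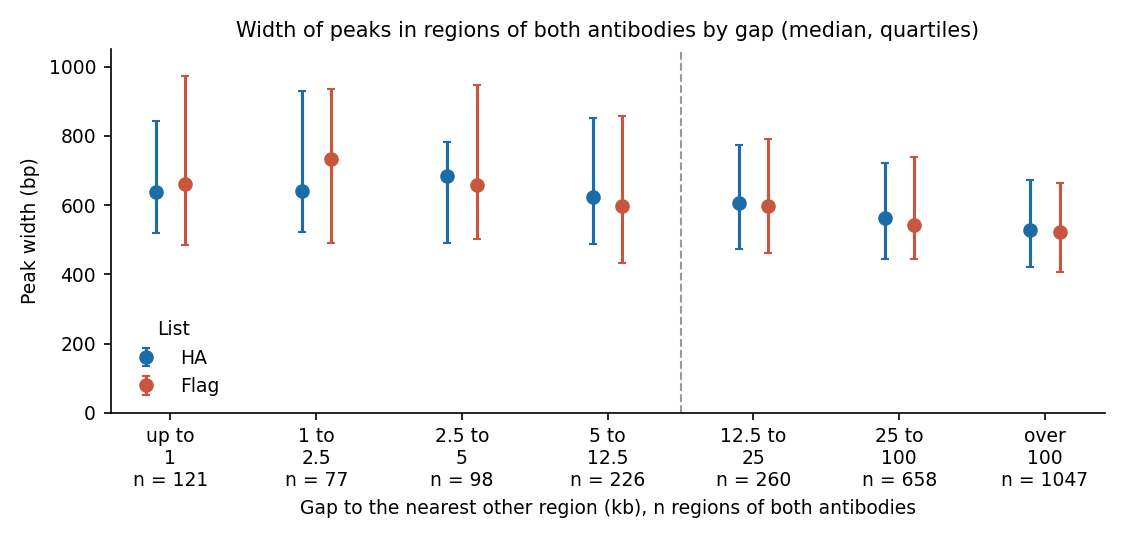
Width in bp of HA (blue) and Flag (red) peaks in regions of both antibodies, by gap in kb to the nearest other region; points are medians, bars quartiles, n counts regions, and the dashed line is the 12.5 kb limit. Medians beyond 100 kb are 528 bp in HA and 521 bp in Flag, the lowest of the 7 classes in each list.

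Regions near the limit varied widely in width. The grouped regions closest below it had gaps of 12415 bp (a pair on chromosome 16), 12347 bp (chromosome 19) and 12317 bp (a pair on chromosome 6), with HA widths of 784, 513, 540, 509 and 894 bp. The isolated regions closest above it had gaps of 12518, 12554, 12581, 12586 and 12599 bp and HA widths of 313, 830, 1458, 1018 and 349 bp. At the other extreme, chr14:119149175-119150268 and chr14:119150283-119151073 were 14 bp apart. The former measured 1094 bp in HA and 1022 bp in Flag, the latter 628 and 791 bp. Such gaps are far shorter than the peaks beside them.

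Only 3 grouped regions held more than 1 peak of a list. The longest, chr14:73246814-73248662, had 2 HA peaks under a single Flag peak of 1849 bp. In chr8:28360018-28361671, 2 HA peaks met a Flag peak of 1100 bp, and chr14:21035734-21037155 had 2 peaks in each list. In the other 519 regions 1 HA peak met 1 Flag peak.

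Median width was larger in groups with more regions of both antibodies. Median HA widths were 596 bp in groups with 1 such region, 655.5 bp with 2, 716 bp with 3 and 810 bp with 4. The Flag medians were 607, 641, 705 and 904 bp in the same order. The last class holds 20 regions from 5 groups, with HA widths from 342 to 1835 bp and Flag widths from 338 to 5241 bp, so its median rests on few loci. Leaving out those 5 groups gave median widths of 637 bp in each list.

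Position in the lists showed less of a difference between grouped and isolated regions. The lists do not state what their order is, though regions of both antibodies stand earlier in them than peaks of 1 antibody. In the HA list grouped peaks had a median position at 38.96% of the lines and isolated peaks at 38.84%. For Flag the kinds stood at medians of 38.21% and 41.27%. The first 10% of the HA lines (9.98% of its peaks) held 15.4% of grouped and 12.6% of isolated peaks. The first 10% of the Flag lines (9.98%) held 12.2% and 11.4%. Of the 100 regions of both antibodies that came earliest in both lists together, 25 were grouped, against 53 of the 100 widest. In the 5 fullest groups the peaks stood later, with medians of 53.2% of the lines in HA and 47.29% in Flag. Their median widths, 810 bp in HA and 904 bp in Flag, were nevertheless larger than in groups with fewer regions of both antibodies. All these medians rest on 20 regions from few loci.

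**Figure D4:**
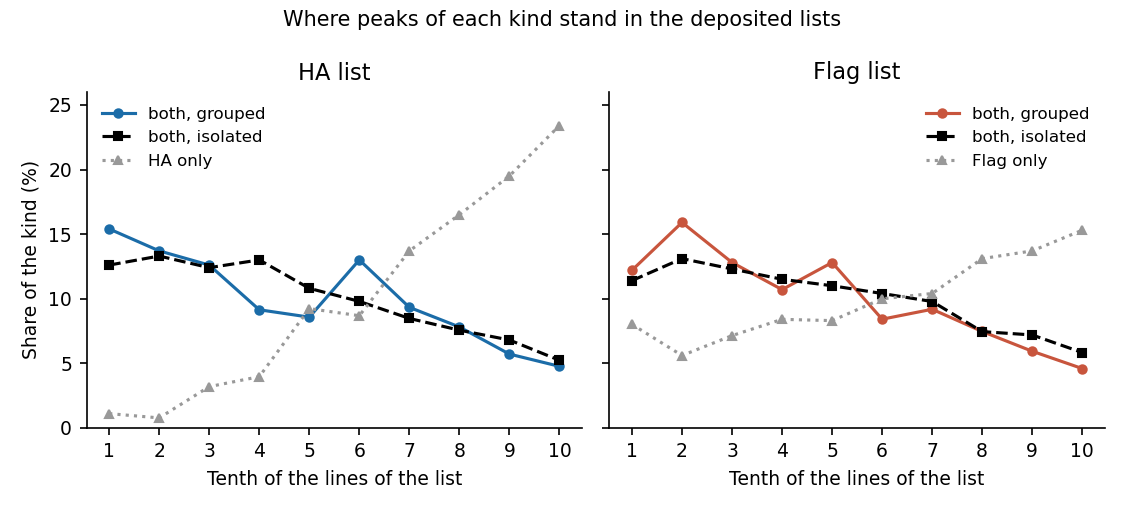
Share (%) of the peaks of each kind of region by position in the HA list (left) and the Flag list (right), in 10 equal steps of lines. Grouped and isolated regions of both antibodies run close together, with 15.4% and 12.6% of their HA peaks in the first step, while 1.10% of HA-only peaks are there.

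Width and line position were only weakly related in grouped as in isolated regions. Over the 519 regions with 1 peak of each list, the Spearman correlation between width and line was -0.26 in HA (Pearson's r = -0.23) and -0.22 in Flag (r = -0.16), so wider peaks tended to stand earlier. Over 1955 isolated regions it was -0.26 in HA (r = -0.23) and -0.27 in Flag (r = -0.24). These are correlations across sites, which share the chromatin preparation's cell line and, within a list, 1 library.

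The centres of the overlapping HA and Flag peaks lay farther apart in grouped regions, which have wider peaks, than in isolated ones. The centres of the HA and Flag peak were a median of 68.75 bp apart in grouped regions (quartiles 32.12 and 134 bp) and 46.5 bp in isolated ones (21 and 89.5 bp). Centres lay within 100 bp of each other in 331 grouped regions (63.4%) and in 1557 isolated ones (79.2%). Grouped regions were also longer, with a median length of 758.5 bp against 628 bp. As a share of region length the median offset was 9.911% in grouped and 7.75% in isolated regions. The narrower peak was wholly contained in the wider in 50.4% of grouped and 50.9% of isolated regions. Flag was the wider in 269 grouped regions (51.5%) and HA in 253, and Flag was the wider in 48.5% of all regions of both antibodies.

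Regions of the same group differed in width. How far regions of different groups differ was not measured, and a ratio of widest to narrowest tends to grow with the number of regions. In the 144 groups with at least 2 regions of both antibodies, the widest was a median of 1.47 times as wide as the narrowest in HA and 1.4 times in Flag. The ratio exceeded 2 in 34 groups in HA (23.6%) and 33 in Flag (22.9%). Its maximum was 13.9 in Flag, set by the 5241 bp peak in the miR-290 neighbourhood. Both lists tended to order the regions alike. In 79 of the 120 groups with 2 such regions (65.8%) the same region was the wider in both lists, and in 99 (82.5%) the same region came earlier in both.

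For many grouped regions the nearest neighbour was found with a single antibody. The nearest region was found with both antibodies for 275 (52.7%), with Flag only for 149 (28.5%) and with HA only for 98 (18.8%). With only regions of both antibodies counted as neighbours, 306 of the 522 would still be grouped. Having a region within 12.5 kb was not limited to sites of both antibodies. It was so for 18.4% of all union regions, 18.4% of HA-only and 15.2% of Flag-only regions, and since the rule used this distance nothing is read from these shares. Inside the groups stood 107 HA-only and 166 Flag-only regions. These were wider than regions of the same single antibody outside the groups, with medians of 590 against 484 bp in HA and 517.5 against 398 bp in Flag. They did not stand earlier in the lists. Their median positions were 76.04% of the lines in HA and 69.65% in Flag, against 75.43% and 62.1% for the others.

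Grouped regions were found on all 20 chromosomes, in unequal shares. Chromosome 8 had 53 and chromosome 14 had 47, each 29.6% of the regions of both antibodies there, and chromosome 15 had 25 of 84 (29.8%). The share was lowest on chromosomes 16 (10 of 74, 13.5%) and 19 (11 of 77, 14.3%). By construction these shares depend on how densely a chromosome is covered with peaks. The difference in width appeared on most chromosomes when each was taken alone. The median HA width was larger in grouped than in isolated regions on 19 chromosomes and the median Flag width on 18. Chromosome 5 was the exception in both lists, with 528 against 560 bp in HA and 483 against 540 bp in Flag, and on X the Flag medians were 529.5 and 540.5 bp. The largest differences were 241.5 bp in HA on chromosome 16, over 10 regions, and 251 bp in Flag on chromosome 1, over 24 regions. Isolated HA peaks had medians of 636.5 bp on chromosome 8 and 589.5 bp on chromosome 14, and 595.5 bp on X. Without chromosomes 8 and 14, grouped exceeded isolated regions by 83.5 bp in HA and 83 bp in Flag.

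**Figure D5:**
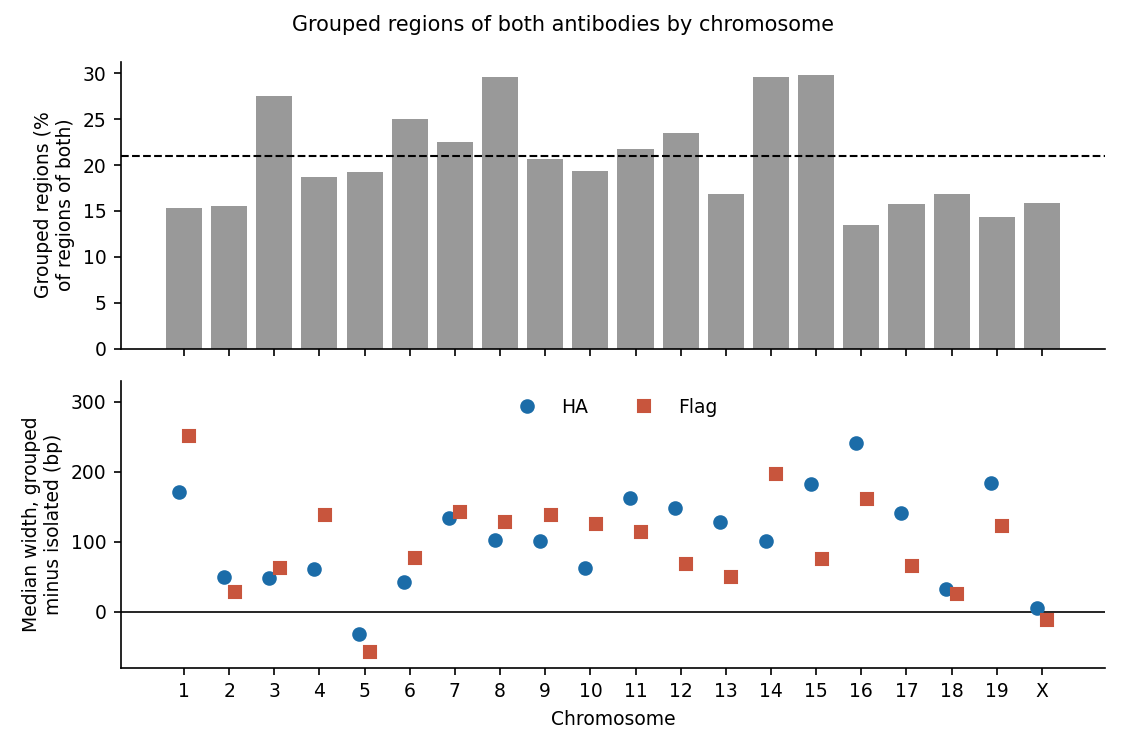
By chromosome, grouped regions as a share (%) of the regions of both antibodies (upper panel, dashed line at the overall 21.0%), and the median width of grouped minus isolated regions in bp (lower panel, HA as blue circles, Flag as red squares). The share runs from 13.5% on chromosome 16 to 29.8% on chromosome 15, and both differences are below 0 on chromosome 5 alone.

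The widest grouped regions were at chr11:3070291-3072663, chr14:76914302-76917223 and chr14:99738655-99741080 by rank in both lists, all given above. Next was chr6:148939797-148941978, measuring 1565 bp (HA) and 2182 bp (Flag). It stood early in both lists, at line 141 of 3406 in HA and 418 of 4569 in Flag. The region chr9:58126377-58128135 (1547 bp in HA, 1759 bp in Flag) stood earlier still, at lines 64 and 198. The region ranked first by width, on chromosome 11, stood far later, at lines 1511 and 3387, so wide regions were spread over the lists. The others of the 10 widest were chr9:78222149-78223917, chr14:65213171-65215170, chr14:73637476-73639461, chr9:110849111-110850892 and chr4:133371297-133373102, with HA widths from 1664 to 2000 bp.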

How the data were processed

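The authors deposited 1 peak list per antibody with 3 columns (chromosome, start and end) in base pairs. Positions refer to mm9, as the submitters' processing notes state. How reads were aligned, how peaks were called and at which threshold, and how the input was used is not given in the sources used here, so a missing peak may be a weak one. Per the labels' protocols, DNA of 200 to 700 bp was cut from a gel and amplified for 18 PCR cycles, which limits how finely close sites can be told apart. Starts were converted to 1-based positions. Where a region held several peaks of a list, its widest was used for pairwise values. Peaks were merged, linked and summarised with Python 3.11.15, pandas 2.3.3 and numpy 2.4.6. Counts equalled those of bedtools 2.31.1, and the code was tested on 20 simulated pairs of lists. Regions named are the 10 groups with most regions of both antibodies (ties by peaks, then shorter span), the 10 widest regions by rank in both lists, those with the smallest gaps or gaps next to the limit, those with several peaks of a list, and groups at loci named in earlier work on these data. The members, loci and measures were chosen with earlier results of these data known. Motifs, sequence content and distances to genes, planned for an mm9 genome, were not analysed here.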

Additional observations from a re-analysis of the deposited data

How the results depend on the processing

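The grouped regions stayed wider than the isolated ones in all 13 settings tried, by 75 to 122 bp (HA) and 83 to 137 bp (Flag). Of 101 values under an alternative, 87 stayed within their limit and 14 did not, the limit being 1.5 times the value for counts and the 95% binomial interval for shares and medians. For differences of medians it was the range that the intervals of both medians allow. These intervals treat regions and peaks as independent, which neighbours are not, and they measure no spread between libraries. A limit of 5000 bp left 296 regions (11.9% of those of both antibodies) in 208 groups, and a limit of 25000 bp took in 31.4%, by construction. With only regions of both antibodies as neighbours there were 306 (12.3%) in 141 groups, with a median HA width of 675 bp. Without the narrowest 25% of each list the medians were by construction larger, 699 bp for grouped and 624 bp for isolated regions in HA and 733.5 and 609 bp in Flag. Isolated regions with a gap over 100 kb had a median HA width of 528 bp and a median Flag width of 521 bp. That setting and those of centre to centre distance, the first 100 Flag lines, chromosomes 8 and 14, and the fullest group were chosen after seeing the data. Motif, window and start site alternatives were not run. No paired analysis was possible because there is 1 library for each antibody, and for the same reason no replicate could be left out. Depth is unknown.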

Other observations

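Some regions of both antibodies in neighbourhoods of pluripotency genes fell outside the 12.5 kb rule. In the neighbourhood of Klf2, a Krüppel-like factor of naive pluripotency, chr8:74839682-74840685 and chr8:74857525-74858646 were 16839 bp apart. They measured 1004 and 1105 bp in HA and 730 and 1023 bp in Flag, all above the median of grouped regions in their list. In the neighbourhood of Lifr, the receptor subunit for LIF, chr15:7065191-7067231 measured 2041 bp in HA and 1038 bp in Flag and lay 32697 bp from a Flag-only peak. These loci were looked up after their values were known.

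Close groups also existed without any region of both antibodies. Of 448 groups of at least 2 regions, 99 had none, and 349 (77.9%) had at least 1. In the neighbourhood of Etv5, an ETS factor downstream of FGF signalling, 4 HA-only peaks and 1 Flag-only peak formed such a group. The Flag peak, chr16:22412924-22413503, stood 723 bp from an HA peak without overlapping it. The nearest region of both antibodies, chr16:22442080-22442748, was 25347 bp from the group and stood at line 20 of the HA list and line 92 of the Flag list.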
